A study of Homo sapiens with 12 samples.

Results

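The 36 genes described here encode the machinery of mitosis and of the G2 phase that precedes it: CDK1 with its cyclins, the mitotic kinases, the spindle checkpoint, the anaphase-promoting machinery, the kinetochore, the spindle and the cytokinesis apparatus, with the proliferation marker MKI67 and the chromosome untangling enzyme TOP2A. They were chosen by name as textbook members of this programme, with earlier results of these data known. All 36 were found among the 58735 genes of the deposited expression table. RNA had been sequenced from NCM460, a human colon epithelial cell line, in 12 libraries, 3 in each of 4 groups. The groups were cells in medium alone, cells given the inflammatory cytokine TNF-α, cells given TNF-α with Bufotenidine (the quaternary ammonium indole that the study calls 5-OH-TMT), and cells given TNF-α after knockdown of HTRA2 with siRNA. HTRA2 is a serine protease of the mitochondrial intermembrane space, and the study knocked it down to ask whether the compound acts through it. A figure legend of the study sets the knockdown against cells with a control siRNA, while the labels name none for the TNF-α group. If the TNF-α libraries had none, transfection and loss of HTRA2 cannot be told apart. The labels also do not say which siRNA the knockdown libraries received. Nothing in the labels says that the 3 libraries of a group came from separate cultures, so the p-values measure the spread between these libraries, which may be technical.

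In a cycling cell the mitotic genes are silent through G1 and early S phase and are switched on together from late S phase to mitosis. The DREAM complex, built on the MuvB core with a p107 or p130 pocket protein, represses them in resting and G1 cells, and MuvB with B-MYB and FOXM1 activates them later. MuvB contacts a short element near the transcription start, the cell cycle genes homology region or CHR, and many of these promoters also carry CCAAT boxes bound by NF-Y. In bulk RNA, fewer cells in G2 and mitosis and less mitotic RNA per cell cannot be told apart.

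Between 31008429 and 37624399 reads per library fell on genes. HTRA2 itself stood at 7.44, 7.18 and 7.22 FPKM (fragments per kilobase of transcript, scaled between libraries) in the knockdown libraries, and at 15.4, 14.0 and 14.2 FPKM in the TNF-α libraries. Its log2 fold change was -0.98 (SE 0.09, limma adjusted p = 2.8e-05). The epithelial genes EPCAM, CDH1, KRT8 and KRT18 were present in every library (KRT8 between 887 and 1315 FPKM), but 5 of 14 epithelial markers, KRT20, VIL1, CDX1, CDX2 and CDH17, never passed 3 reads. Of 19 markers of other cells, 7 averaged at least 1 FPKM. They included the basal epithelial genes KRT5 (112 to 184 FPKM), KRT14 and TP63, while the leukocyte marker PTPRC reached at most 4 reads. The summed level of the epithelial list lay between 2194 and 2780 FPKM in all groups. That of the other list lay between 203 and 247 FPKM in the knockdown and between 168 and 198 FPKM elsewhere. Of 8 epithelial markers expressed enough to test, 3 rose in the knockdown against TNF-α, KRT19 (0.77), CDH1 (0.40) and CLDN7 (0.29), and CDH1 alone rose against Bufotenidine (0.42). Of 8 markers of other cells, 4 rose and 2 fell in the knockdown against TNF-α, including VIM (-1.68), COL1A1 (1.23) and ACTA2 (1.05), and 3 rose and 1 fell against Bufotenidine. CDH5 rose with TNF-α (1.71, from 0.34 ± 0.04 to 1.32 ± 0.14 FPKM, SD, n = 3), and no marker passed with Bufotenidine (2 higher and 1 lower epithelial marker and 1 lower other marker at an unadjusted p under 0.05). Over all genes, 9.35% were called higher and 8.08% lower in the knockdown against TNF-α. Against Bufotenidine 7.85% were higher and 7.43% lower, and with TNF-α against medium 3.22% and 0.885%. The part of these markers in the results was not tested.

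Medium libraries 2 and 3 and knockdown library 2 stood apart from their groups. Medium library 3 held the highest value of its group for 22 of the 36 genes, and knockdown library 2 for 26 of 36. In medium library 3 and knockdown library 2 the 2795 genes with the lowest transcript GC content lay at a median of 0.14 and 0.15 log2 units above their group means. Mitochondrially encoded genes took 10.4% of the summed FPKM in knockdown library 2 and between 12.7% and 16.0% in the others. Medium library 2 deviated the other way, with these 2795 genes at -0.16 and the lowest value of its group for 19 of the 36 genes. Leaving it out is among the left-out libraries. Counts that change when medium library 3 and knockdown library 2 are left out are given beside each result.

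Many of the mitotic promoters held CHR and CCAAT letters, and so did those of mitotic genes outside the 36. RefSeq promoters of 300 bases, from 250 before to 50 after each transcript start (GRCh38.p14), were at hand for 31 of the genes, and not for AURKA, BIRC5, TPX2, TTK and UBE2C. The CHR letters TTTGAA, read on either strand, were present for 21 of 31 genes (67.7%), against 18.2% of all 27305 genes with a promoter in the table. The CCAAT letters, again on either strand, were present for 24 of the 31 (77.4%), against 39.7% of all genes. Both were found for 17 of the 31 genes (54.8%) and for 7.26% of all genes. Among 79 other mitotic genes with a promoter, 62% held the CHR letters, 70.9% the CCAAT letters and 44.3% both. Among 41 DNA replication and G1/S genes, which are switched on earlier in the cycle, 2 (4.88%) held the CHR letters and 25 (61%) the CCAAT letters. For 12 of the 31 mitotic genes a CHR match began within 40 bases upstream of a start. A match is a description of letters and not of a bound site, and the CHR and CCAAT matches overlapped in a single place, in MKI67. Only the letters TTTGAA were searched for the CHR, and other spellings were not counted, so a promoter without a match may still hold one.

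The 120 bases upstream of a RefSeq start are printed for the 4 genes that passed the test against TNF-α or medium, CDC25C, KIF2C, KIF20A and MKI67, and for CCNB2 and PLK1, in which the CHR follows CCAAT boxes. They run 5′ to 3′ on the gene's strand, with CHR and CCAAT matches in capitals (ATTGG is CCAAT on the other strand). Other annotated transcripts can begin further upstream, so that a stretch may lie inside a longer gene model.
CDC25C, chr5:138331805-138331924, minus strand: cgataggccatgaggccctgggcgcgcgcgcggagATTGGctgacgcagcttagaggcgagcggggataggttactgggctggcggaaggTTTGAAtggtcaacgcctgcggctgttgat
CCNB2, chr15:59105026-59105145, plus strand: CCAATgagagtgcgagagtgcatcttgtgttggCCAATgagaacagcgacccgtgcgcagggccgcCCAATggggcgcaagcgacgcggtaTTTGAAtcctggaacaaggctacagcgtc
PLK1, chr16:23678769-23678888, plus strand: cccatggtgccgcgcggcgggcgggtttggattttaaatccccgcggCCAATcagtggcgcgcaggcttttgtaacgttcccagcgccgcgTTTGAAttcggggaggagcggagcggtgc
MKI67, chr10:128126424-128126543, minus strand: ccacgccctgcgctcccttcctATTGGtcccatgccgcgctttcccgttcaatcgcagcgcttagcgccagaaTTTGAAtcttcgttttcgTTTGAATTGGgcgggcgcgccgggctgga
KIF20A, chr5:138178992-138179111, plus strand: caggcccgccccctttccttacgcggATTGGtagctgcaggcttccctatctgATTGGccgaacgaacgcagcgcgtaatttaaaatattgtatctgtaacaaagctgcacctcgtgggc
KIF2C, chr1:44739717-44739836, plus strand: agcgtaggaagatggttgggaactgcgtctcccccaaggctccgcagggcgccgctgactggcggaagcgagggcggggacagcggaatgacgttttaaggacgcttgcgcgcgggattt
CDC25C, CCNB2 and PLK1 carry 1 CHR downstream of their CCAAT boxes, MKI67 carries 2 CHR matches, KIF20A holds CCAAT letters alone, and KIF2C holds neither in this window. The CDC25C start printed here was chosen because it holds a CHR. The CDC25C windows of RefSeq starts further upstream, chr5:138338292-138338591 and chr5:138338306-138338605, hold neither CHR nor CCAAT letters.

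**Figure D1:**
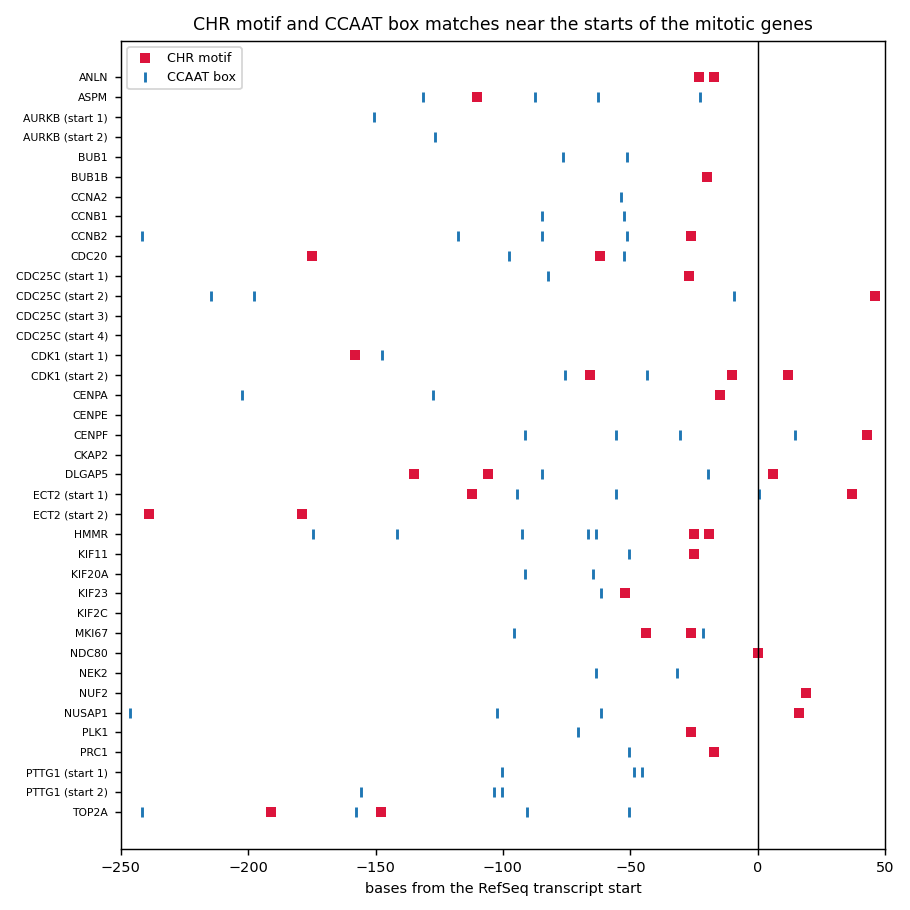
Positions of CHR (red squares) and CCAAT box (blue ticks) matches on either strand from 250 bases before to 50 bases after each RefSeq transcript start (x axis, bases; black line, the start), 1 row per start for the 31 mitotic genes with a promoter in the table. CHR matches of 12 genes begin within 40 bases upstream of a start, and CCAAT boxes mostly lie further upstream.

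The mitotic genes were well expressed in this line. UBE2C, the ubiquitin-conjugating enzyme of the anaphase-promoting complex, and CDC20, its activator, were the most abundant in medium at 303 ± 26.1 and 292 ± 38.1 FPKM (SD, n = 3). TPX2, which targets AURKA to spindle microtubules, followed at 207 ± 4.35 FPKM and CCNB1 at 148 ± 2.36 FPKM. At the other end, the kinetochore motor CENPE stood at 2.80 ± 2.30 FPKM and the microtubule bundler NUSAP1 at 2.90 ± 0.28 FPKM. PRC1, the midzone crosslinker, had only 0.18 ± 0.06 FPKM, from 17 to 47 reads per library. In the annotation 3181 of its 5525 exon bases, and 1787 of the 2875 of NUSAP1, also belong to another gene on the same strand, so reads of both are uncertain. The gene that overlaps PRC1, AC068831.7, held 101 to 194 reads per library, and the one that overlaps NUSAP1 held 0.

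The mean log2 level was lowest with Bufotenidine for 28 of the 36, and highest in the knockdown for 20, in medium for 15 and in TNF-α for CDK1. The mean log2 level of the 36 genes ranged from 4.69 to 4.92 over the medium libraries, 4.60 to 4.68 with TNF-α, 4.38 to 4.53 with Bufotenidine and 4.73 to 4.96 with the knockdown. The medium and knockdown libraries overlapped, and the Bufotenidine libraries lay below every other library. TNF-α alone is the reference of both the Bufotenidine and the knockdown comparison and is also compared with medium, so those 3 comparisons are not independent. The knockdown is also compared directly with Bufotenidine, on the same libraries. That log2 fold change is the knockdown value minus the Bufotenidine value, each against TNF-α, so it is not independent of them either.

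**Figure D2:**
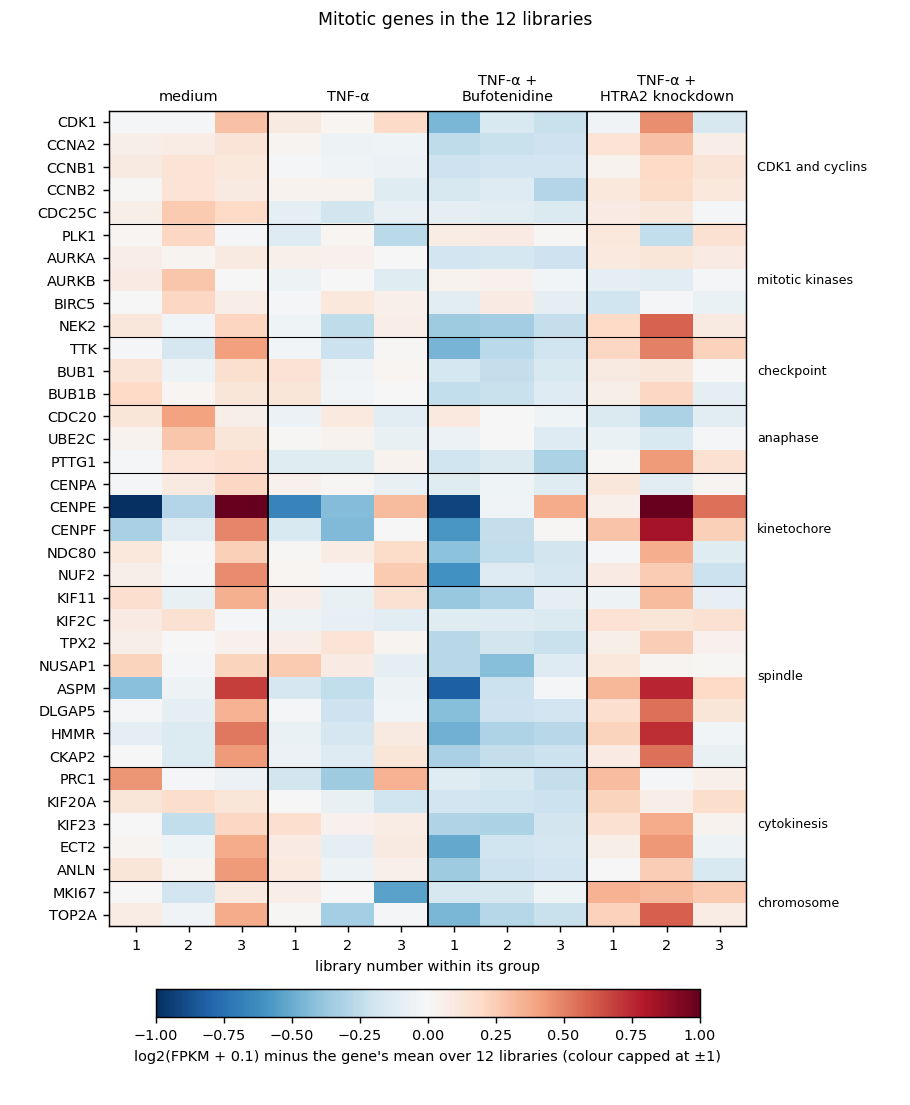
Each cell is log2(FPKM + 0.1) of 1 gene (rows, grouped by role) in 1 library (columns, 3 per group) minus the mean of that gene over all 12 libraries, with the colour capped at 1 log2 unit in either direction. The Bufotenidine columns are blue for most genes, and knockdown library 2 and medium library 3 are the reddest of their groups.

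Under TNF-α the mitotic genes stayed close to medium. Only CDC25C, the phosphatase that activates CDK1 at mitotic entry, passed the test (limma on log2(FPKM + 0.1), Benjamini-Hochberg adjustment over all 18079 genes tested). CDC25C (ENSG00000158402, hg38 chromosome 5, 138285265 to 138338355) stood at 16.5, 19.1 and 18.3 FPKM in medium and at 15.0, 14.0 and 15.1 FPKM with TNF-α, and these values did not overlap. It fell by 0.29 on the log2 scale (SE 0.07, adjusted p = 0.035). At this threshold 0.885% of all genes were lower and 3.22% higher, beside 1 and 0 of the 36. At an unadjusted p under 0.05, 6 of the 36 were lower and 0 higher, beside 1070 and 1603 of all 18079 genes. The CDC25C call depended on the fit. By voom on reads recovered from the FPKM it was lost (adjusted p = 0.054) and the only gene called lower was KIF20A (adjusted p = 0.033), with none higher. It was also lost without the mean-variance trend (adjusted p = 0.083), with the replicate block (adjusted p = 0.085) and in a fit to only these groups (adjusted p = 0.14). It was kept without medium library 1 and lost without each of the other 5 libraries of these groups (adjusted p of 0.069 to 0.14).

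The other 35 genes had small differences, mostly negative. Of the 36 log2 fold changes 33 were below 0, with a median of -0.13 beside -0.0020 over all genes tested. KIF20A, the kinesin of the central spindle, differed by -0.23 (adjusted p = 0.076), from 68.6, 71.2 and 68.6 FPKM in medium to 63.0, 60.1 and 54.8 FPKM. CCNB1, the B-type cyclin of CDK1, differed by -0.15 (adjusted p = 0.22). The groups did not overlap, with TNF-α lower, for 5 of the 36 genes and, with TNF-α higher, for none, where 8.74% and 11.1% of all genes behaved so. After a correction for transcript GC content and length, added after seeing the data, 4 genes were lower: CDC25C, KIF20A, KIF2C and CCNB1. The share of all genes called with the correction is not given here. Without medium library 3 and knockdown library 2 no gene passed and the median was -0.043.

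Bufotenidine with TNF-α gave lower values than TNF-α alone for most mitotic genes, and none passed the test. The log2 fold change was below 0 for 30 of 36 genes, and the median was -0.20 beside 0 over all genes tested. limma called 0 of the 36 higher and 0 lower, in a comparison that called only 0.0332% of all genes higher and 0.00553% lower. At an unadjusted p under 0.05, 15 of the 36 were lower and 0 higher, beside 1897 and 1735 of all 18079 genes. By voom AURKA and TPX2 were called lower. All Bufotenidine libraries lay below all TNF-α libraries for 19 of the 36 genes, against 15.5% of all genes. The reverse held for 0 of the 36 and for 16.3% of all genes.

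The values nearest to the threshold came from the spindle pair TPX2 and AURKA. TPX2 stood at 212, 222 and 206 FPKM with TNF-α and at 167, 178 and 173 FPKM with Bufotenidine, which is -0.30 on the log2 scale (95% interval -0.45 to -0.16, adjusted p = 0.087). AURKA, the kinase of centrosome maturation and spindle assembly, stood at 143.0, 142.5 and 138.3 FPKM and then at 121.0, 122.2 and 119.5 FPKM, which is -0.22 on the log2 scale (adjusted p = 0.087). Neither gene's groups overlapped, and for both genes the gap between the groups exceeded the range within either group.

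Within the roles, the CDK1 group had non-overlapping lower values for 4 of 5 genes. CDK1, the kinase that drives mitotic entry, stood at 23.4, 22.2 and 25.1 FPKM and then at 16.0, 19.7 and 18.8 FPKM. CCNB1 stood at 135.4, 133.7 and 131.3 FPKM and then at 118.8, 120.1 and 119.6 FPKM. Its difference was small, -0.16 on the log2 scale, and its libraries were tight. CDC25C was at 0.00 (95% interval -0.15 to 0.15). Of the 8 spindle genes 6 had non-overlapping lower values, among them KIF11, the motor that separates the spindle poles (-0.31), and NUSAP1 (-0.36). So had 3 of 5 cytokinesis genes: KIF23, the midzone kinesin (-0.36), ECT2, the exchange factor for RhoA (-0.32), and ANLN, the contractile ring scaffold (-0.28). For the kinetochore the pair NDC80 (-0.37) and NUF2 (-0.39), which hold microtubules, had them, and CENPE (0.06), CENPF (-0.07) and CENPA (-0.09) did not. The genes at or above 0 were CDC25C, PLK1 (0.18), AURKB (0.07), CENPE, CDC20 (0.04) and MKI67 (0.03), all with adjusted p of at least 0.37.

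Transcript GC content moved with these differences across the whole table. The mitotic genes had a median GC content of 42.6%, against 48.9% for the 11180 genes with a mean of at least 1 FPKM. Across the 36 genes the Bufotenidine log2 fold change rose with GC content (Spearman's rho 0.63), and across the 11180 genes it did so too (rho 0.69). All these values come from the same 6 libraries, and genes are not independent replicates. The 2795 of these genes with the lowest GC content had a median difference of -0.21, and the 2795 with the highest 0.20. After the correction for GC content and length, the median of the 36 genes was -0.066, and 0 genes passed in either direction. Fits restricted to the compared groups called 4 lower, and 7 were called without medium library 3 and knockdown library 2. Shares of all genes called in these fits are not given here.

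**Figure D3:**
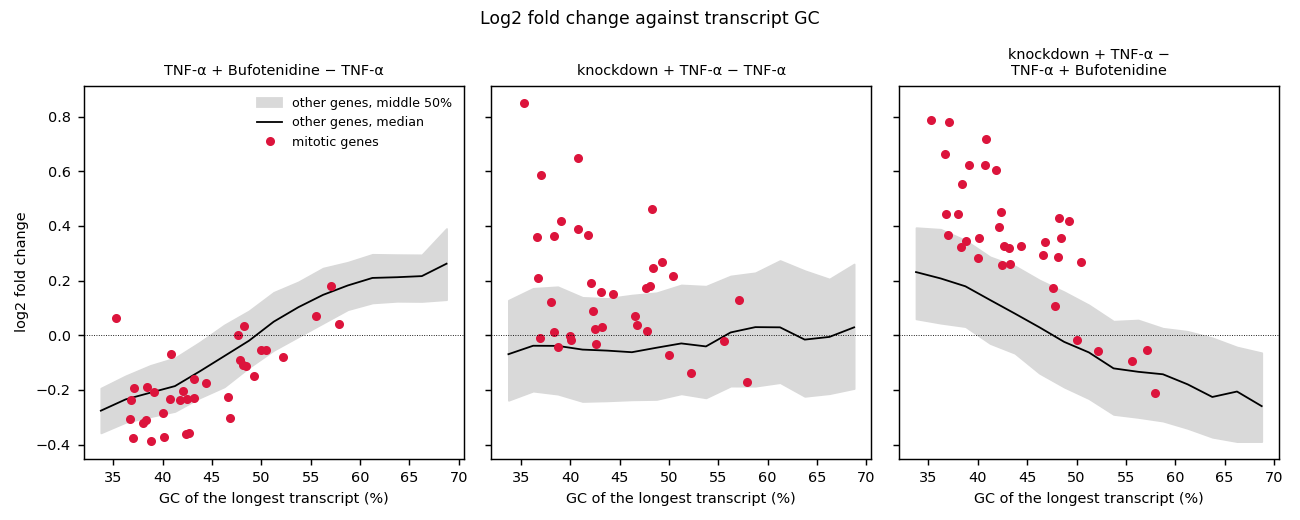
Log2 fold change (y axis) against GC content of the longest transcript (x axis, %) for the 36 mitotic genes (red points) in 3 comparisons. The median (line) and middle 50% (band), labelled other genes, are of all genes with a mean of at least 1 FPKM in bins of GC content. Those genes include mitotic genes. In the Bufotenidine panel most red points lie in or near the sloping band, and in both knockdown panels most low-GC points lie above the line.

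In the knockdown 3 mitotic genes rose against TNF-α alone and none fell. KIF2C (ENSG00000142945, hg38 chromosome 1, 44739818 to 44767767), a kinesin that depolymerises microtubules to correct their attachment, stood at 63.2, 61.9 and 60.8 FPKM with TNF-α and at 72.2, 71.2 and 72.6 FPKM in the knockdown. It rose by 0.22 on the log2 scale (SE 0.05, adjusted p = 0.016). KIF20A (ENSG00000112984, hg38 chromosome 5, 138178719 to 138187715) went from 63.0, 60.1 and 54.8 FPKM to 73.7, 66.0 and 71.1 FPKM, a rise of 0.25 (SE 0.06, adjusted p = 0.021). MKI67 (ENSG00000148773, hg38 chromosome 10, 128096659 to 128126385), which coats mitotic chromosomes, went from 22.1, 21.1 and 14.5 FPKM to 26.8, 26.2 and 25.2 FPKM, a rise of 0.46 (SE 0.13, adjusted p = 0.032). The knockdown and TNF-α values of these 3 genes did not overlap, and for MKI67 TNF-α library 3 lay far below the others of its group. Without it the MKI67 difference was 0.27 (adjusted p = 0.060).

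Beside these 3 of 36 genes, 9.35% of all genes were called higher in this comparison and 8.08% lower, so the count is near the background. None of the 36 was lower at an unadjusted p under 0.05, and voom also called none lower. At that unadjusted threshold 14 were higher, beside 2823 of all 18079 genes higher and 2805 lower. The knockdown libraries lay above the TNF-α libraries without overlap for 14 of the 36, against 17.5% of all genes, and below them for CDC20 alone, against 16.4%. The median log2 fold change was 0.14 (27 of 36 above 0), beside -0.0034 over all genes. Over the 13 other settings, KIF2C passed in 13, KIF20A in 11 and MKI67 in 6. Without TNF-α library 2 only MKI67 passed, and without TNF-α library 3 no gene did. Without knockdown library 1 none of the 3 passed (adjusted p of 0.053 to 0.099) and 2 other mitotic genes did. MKI67 was also lost without knockdown library 2 (adjusted p = 0.062) or 3 (adjusted p = 0.061), and KIF20A without knockdown library 3 (adjusted p = 0.055). Without medium library 3 and knockdown library 2, KIF2C and KIF20A passed.

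The size of the knockdown difference varied among the roles. The anaphase genes CDC20 (-0.17) and UBE2C (-0.07) were below 0, and so was BIRC5 (-0.14), the survivin subunit of the chromosomal passenger complex, while none of these passed. PTTG1, the securin that holds separase inactive, was at 0.27 (adjusted p = 0.085). The CDK1 group had non-overlapping higher values for 4 of 5 genes, CCNA2, CCNB1, CCNB2 and CDC25C, with log2 fold changes of 0.15 to 0.19 and adjusted p from 0.057 to 0.14. CDK1 itself did not differ beyond its spread, at -0.01 (95% interval -0.33 to 0.31). The checkpoint kinase TTK (0.39, adjusted p = 0.078) and the centrosome kinase NEK2 (0.37, adjusted p = 0.062) did not overlap between the groups. TOP2A went from 70.6, 55.5 and 69.3 FPKM to 82.6, 106.5 and 73.7 FPKM, which is 0.42 on the log2 scale (adjusted p = 0.070).

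The largest knockdown differences belonged to very long transcripts with wide intervals. CENPE was at 0.85 (95% interval -0.29 to 1.99), CENPF, a kinetochore and matrix protein, at 0.65 (0.15 to 1.14), and ASPM, a spindle pole protein, at 0.59 (0.01 to 1.16). CENPE varied within the medium group alone from 1.01 to 5.40 FPKM, and with TNF-α from 1.52 to 3.11 FPKM. The 10 genes with a deposited length over 5 kb had a median knockdown difference of 0.30, and the 26 others 0.099. Across the 36 genes the difference rose with transcript length (Spearman's rho 0.53), against 0.19 across the 11180 genes. After the correction for GC content and length, 14 genes were higher and CDC20 was lower (-0.17, adjusted p = 0.032), and MKI67 no longer passed (0.30, adjusted p = 0.052). The share of all genes called with this correction is not given here, so the count of 14 has no background beside it. KIF2C and KIF20A passed with the correction, at adjusted p of 0.0011 and 0.0028. Their levels moved far less than 2-fold, and no mitotic gene in any comparison reached 2-fold.

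**Figure D4:**
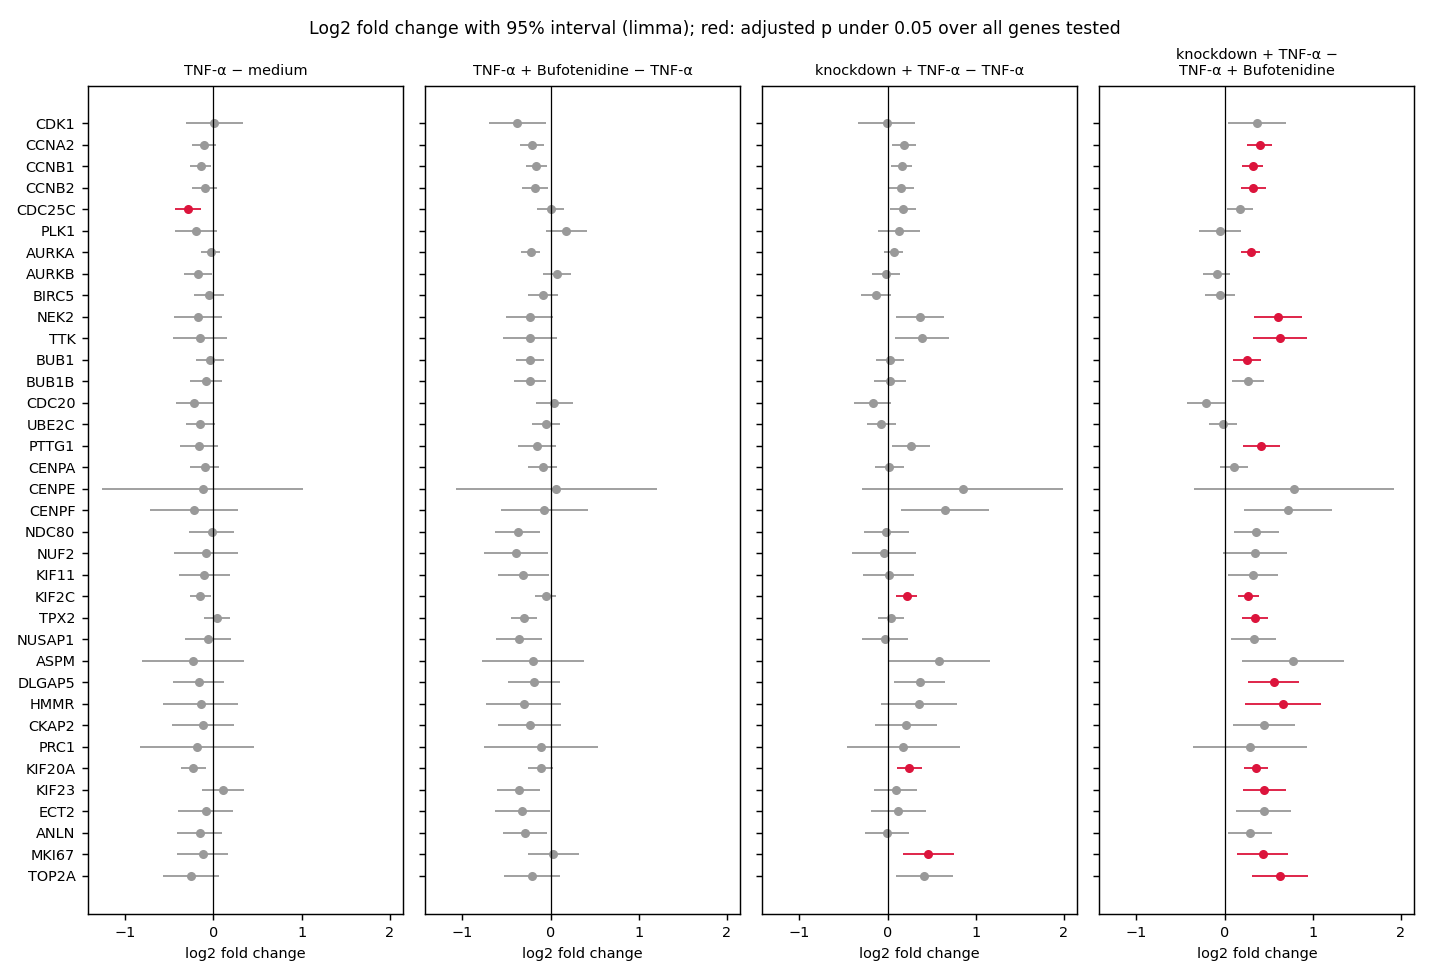
Log2 fold changes (x axis) with 95% intervals from limma for the 36 mitotic genes (rows) in the 4 comparisons, in red where the adjusted p over all genes tested was under 0.05. CDC25C is red for TNF-α, none for Bufotenidine, KIF2C, KIF20A and MKI67 for the knockdown, and 16 genes for the knockdown against Bufotenidine.

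Set directly against TNF-α with Bufotenidine, the knockdown had higher levels of 16 of the 36 mitotic genes and lower levels of none (0 at an unadjusted p under 0.05 and 0 by voom). In this comparison 7.85% of all genes were called higher and 7.43% lower. The median log2 fold change was 0.34, with 31 of 36 above 0, beside 0.0104 over all genes. At an unadjusted p under 0.05, 27 were higher, beside 2740 of all 18079 genes higher and 2634 lower. The knockdown libraries lay above the Bufotenidine libraries without overlap for 27 of the 36 genes, against 18.2% of all genes, and below them for CDC20 alone, against 17.6%.

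The 16 genes came from every role except the kinetochore. A rise here is a level above Bufotenidine, and of the 16 only KIF2C, KIF20A and MKI67 also passed against TNF-α alone. Against TNF-α the knockdown differed by 0.07 for AURKA, 0.04 for TPX2, 0.02 for BUB1 and 0.09 for KIF23. For NEK2, TTK, DLGAP5, HMMR, MKI67 and TOP2A that difference was 0.36 to 0.46. The cyclins rose together: CCNA2 by 0.40 (adjusted p = 0.0019), CCNB1 by 0.32 (adjusted p = 0.0033) and CCNB2 by 0.32 (adjusted p = 0.0078). CCNA2, which acts in S phase and up to mitotic entry, stood at 55.1, 56.3 and 57.1 FPKM with Bufotenidine and at 72.4, 80.6 and 69.1 FPKM in the knockdown. Knockdown library 2 was the highest, and without it the difference was still called. CDK1, their partner, differed by 0.37 and did not pass (adjusted p = 0.12), with knockdown values of 21.4, 30.4 and 19.6 FPKM. CDC25C was at 0.17 (adjusted p = 0.11).

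Among the kinases and the checkpoint, AURKA rose by 0.29 (adjusted p = 0.0026), NEK2 by 0.60 (adjusted p = 0.0079), TTK by 0.62 (adjusted p = 0.013) and BUB1 by 0.26 (adjusted p = 0.035). AURKA went from 121.0, 122.2 and 119.5 FPKM to 148.1, 150.3 and 146.3 FPKM, so that the groups were far apart in relation to the spread within them. AURKB (-0.09), its partner BIRC5 (-0.06) and PLK1 (-0.05) did not pass, and all 3 have a transcript GC content of 52.2% or more. BUB1B, the BubR1 checkpoint kinase, was at 0.26 (adjusted p = 0.056).

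Of the anaphase genes PTTG1 rose by 0.42 (adjusted p = 0.016), while CDC20 was at -0.21 (adjusted p = 0.17) and UBE2C at -0.02 (95% interval -0.18 to 0.14). CDC20 stood at 271, 255 and 246 FPKM with Bufotenidine and at 229, 204 and 235 FPKM in the knockdown. Its values pointed the other way from those of its substrate PTTG1, and the groups did not overlap. None of the 5 kinetochore genes passed. CENPF was at 0.72 (adjusted p = 0.054), NDC80 at 0.36 (adjusted p = 0.061), NUF2 at 0.34, CENPA, the centromeric histone, at 0.11 and CENPE at 0.79 with the widest interval of all (-0.35 to 1.92).

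All 8 spindle genes had non-overlapping higher values in the knockdown, and 4 passed: KIF2C (0.27, adjusted p = 0.0069), TPX2 (0.34, adjusted p = 0.0059), DLGAP5 (0.55, adjusted p = 0.018) and HMMR (0.66, adjusted p = 0.041). DLGAP5 and HMMR are microtubule-binding spindle assembly factors. KIF11 (0.32), NUSAP1 (0.33), ASPM (0.78) and CKAP2 (0.44) had adjusted p from 0.068 to 0.12. The 5 cytokinesis genes also did not overlap, and KIF20A (0.36, adjusted p = 0.0040) and KIF23 (0.45, adjusted p = 0.019) passed. ECT2 (0.44), ANLN (0.28) and PRC1 (0.29, at under 50 reads) did not. TOP2A rose by 0.62 (adjusted p = 0.015), from 51.2, 57.5 and 60.2 FPKM to 82.6, 106.5 and 73.7 FPKM. MKI67 rose by 0.43 (adjusted p = 0.049), from 18.9, 18.8 and 20.4 FPKM to 26.8, 26.2 and 25.2 FPKM.

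Of the 16 calls, 8 were kept in every refit, with each library of these groups left out and under every other setting: CCNA2, CCNB1, CCNB2, AURKA, NEK2, KIF2C, TPX2 and KIF20A. The MKI67 call was the least stable. It was lost without each of the 6 libraries of these groups in turn (adjusted p of 0.075 to 0.13), without the filter on low values, without the trend and with the replicate block (adjusted p = 0.099, 0.089 and 0.076), and with the GC content and length correction (adjusted p = 0.055). The HMMR call was kept only without knockdown library 3 among the left-out libraries (adjusted p up to 0.14), and was lost without the filter, without the trend, with the block, with quantile normalization and in a fit to only these groups (adjusted p of 0.0501 to 0.090). BUB1 was likewise kept only without knockdown library 3 (adjusted p up to 0.12), and lost without the trend and with the block (adjusted p = 0.072 and 0.0503). With the GC content and length correction BUB1 was at 0.14 (adjusted p = 0.10). TTK, DLGAP5, KIF23 and TOP2A were lost without Bufotenidine library 1, the last 3 of them also without knockdown library 2, and KIF23 without Bufotenidine library 2 (adjusted p of 0.0506 to 0.075). PTTG1 was lost without Bufotenidine library 3 (adjusted p = 0.058) and in a fit to only these groups (adjusted p = 0.065).

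This comparison also moved with GC content, with a Spearman's rho of -0.73 across the 36 genes and -0.44 across the 11180. The 2795 genes of lowest GC content had a median of 0.17, and the 2795 of highest -0.17. After the correction for GC content and length 15 genes were higher and the median was 0.26. The share of all genes called with the correction is not given here. The calls fell to 9 genes without Bufotenidine library 1 and to 10 without knockdown library 2, and 14 were called without medium library 3 and knockdown library 2. Without any other single library of these groups the number stayed within 1.5 times of 16.

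The DNA replication and G1/S genes act just before the mitotic programme. Of 50 such genes 42 fell in the knockdown against TNF-α, beside 8.08% of all genes. Of the 50, 0 rose (0 at an unadjusted p under 0.05), beside 9.35% of all genes. The median difference of the 50 was -0.59 on the log2 scale. The largest falls among those named by rule were in MCM6, a subunit of the replicative helicase (-1.06, from 27.3 ± 0.55 to 13.1 ± 0.56 FPKM, SD, n = 3), DTL, a substrate receptor for CDT1 destruction (-1.01), and UHRF1, a maintenance methylation factor (-1.01). Against Bufotenidine 27 of the 50 were lower, beside 7.43% of all genes. The 27 included MCM5 (-0.96), UNG (-0.84) and UHRF1 (-0.77). With Bufotenidine none passed against TNF-α (25 lower and 0 higher at an unadjusted p under 0.05, median -0.24), and with TNF-α none passed against medium (3 lower and 0 higher, median -0.063).

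The gap between the lists was widest in the knockdown libraries. The mean log2 level of the 36 mitotic genes exceeded that of the 50 replication genes by 1.37 to 1.61 there, against 0.71 to 1.004 in medium, 0.64 to 0.82 with TNF-α and 0.74 to 0.89 with Bufotenidine. The knockdown libraries did not overlap any other library on this measure, which is a difference between lists and carries no test.

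**Figure D5:**
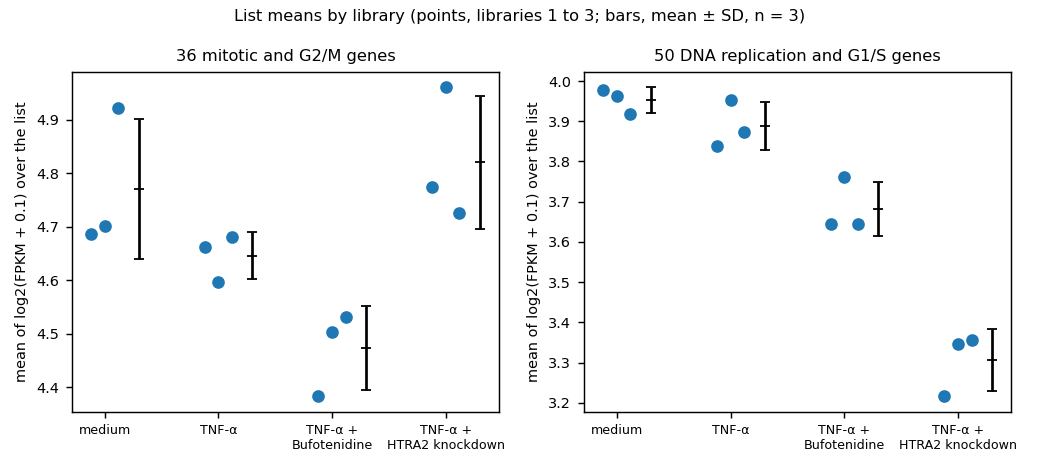
Mean of log2(FPKM + 0.1) over the 36 mitotic genes (left) and the 50 DNA replication and G1/S genes (right) in each library (points, libraries 1 to 3 from left to right in each group), with the group mean ± SD beside them (n = 3) and a y axis that does not start at 0. In the knockdown the mitotic mean lies between 4.73 and 4.96 and the replication mean between 3.22 and 3.36, below all other groups.

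A wider list held 96 other mitotic genes, of which 95 were expressed enough to test. In the knockdown against TNF-α 2 rose and 11 fell, beside 9.35% and 8.08% of all genes, with a median of -0.012. The falls included SPC24 (-0.45), a subunit of the NDC80 complex, and SKA1 (-0.54), which couples kinetochores to microtubules. MIS18A (-0.39), which primes centromeres for CENPA, also fell. Against Bufotenidine 10 were higher and 6 lower, beside 7.85% and 7.43% of all genes, with a median of 0.11. CKAP5, a microtubule polymerase (0.43), and PARPBP (0.48) were higher and PKMYT1, a kinase that holds CDK1 inactive, was lower (-0.53). With Bufotenidine against TNF-α none of the 95 passed (30 lower and 3 higher at an unadjusted p under 0.05, median -0.18). With TNF-α against medium none passed either (10 lower and 1 higher, median -0.070).

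Among 21 regulators of mitotic transcription, 7 fell and 1 rose in the knockdown against TNF-α, beside 8.08% and 9.35% of all genes. The median of the 21 was -0.26. E2F1, an activator of G1/S genes, fell by 0.84 (from 30.3 ± 3.06 to 17.0 ± 2.53 FPKM, SD, n = 3, adjusted p = 0.00020). RBL1, which encodes p107, fell by 0.77, and RBL2, which encodes p130, rose by 0.61 (from 5.66 ± 0.54 to 8.73 ± 1.16 FPKM, adjusted p = 0.0040). Against Bufotenidine 4 were lower and 1 higher, beside 7.43% and 7.85% of all genes. Among these regulators were E2F1 (-0.92), E2F4 (-0.40) and RBL2 (0.81). FOXM1 and MYBL2, named here for their role and not for their values, did not pass in any comparison, at log2 fold changes of -0.19 and -0.07 for the knockdown against TNF-α. No regulator passed for Bufotenidine (6 lower and 0 higher at an unadjusted p under 0.05) or for TNF-α (1 lower and 1 higher).

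Of 16 CDK inhibitors and G1 genes, 3 rose and none fell with TNF-α against medium, beside 3.22% and 0.885% of all genes. The 3 were GADD45A, a growth arrest gene (1.03), CCND1, a G1 cyclin (0.56), and CDKN1A (0.53). CDKN1A encodes the CDK inhibitor p21 and went from 40.7 ± 5.73 to 58.6 ± 1.93 FPKM (SD, n = 3). In the knockdown against TNF-α 3 rose and none fell, beside 9.35% and 8.08% of all genes. The 3 were CDKN2B (1.47), BTG2 (1.05) and CDKN1A again (0.92, to 111 ± 7.23 FPKM). CDKN2B encodes p15 and went from 2.92 ± 0.66 to 8.13 ± 0.41 FPKM. Against Bufotenidine 5 were higher and 1 lower, beside 7.85% and 7.43% of all genes. CDKN2B was at 1.07, BTG2 at 0.93 and CDK4 at -0.43. None passed with Bufotenidine against TNF-α (3 higher and 2 lower at an unadjusted p under 0.05).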

How the data were processed

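Poly(A)-selected libraries of NCM460 cells were sequenced, and the submitters' processing notes name CASAVA 1.8, HISAT2 2.0.4, HTSeq 0.9.1 and hg38. The authors deposited their values as FPKM, and strandedness is not given in the sources used here. FPKM, gene length and the smallest step gave whole reads for 100% of values (tolerance 0.01), and the median of ratios to the geometric mean was 1.01 in every library, so the deposited values already carried that scaling. Coordinates of 100% of genes equalled GENCODE 29. limma 3.58.1 (R 4.3.3) was fitted once to log2(FPKM + 0.1), keeping 18079 genes that averaged 0.1 FPKM or more, with 4 group means, 8 residual degrees of freedom and a mean-variance trend. Tests were two-sided with Benjamini-Hochberg adjustment over all genes, and calls needed an adjusted p under 0.05. Fold changes on this scale understate those of low genes. An exact permutation test of 3 against 3 cannot go below 0.1 and was not used. The fit was tested on simulated data with larger changes than those of the mitotic genes and no deviation by GC content. That test does not show how the fit performs on changes as small as these. All 36 genes passed the filter. Genes outside the 36 were named by rule, at most 3 per list and comparison, with the largest change among called genes averaging at least 1 FPKM. The genes and lists were chosen with earlier results of these data known. Alternatives covered pseudocount, filter, scaling, trend, compared groups, replicate block, voom, left-out libraries and a GC content and length correction.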

Additional observations from a re-analysis of the deposited data

How the results depend on the processing

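Each count and median was recomputed under 13 other settings with all comparisons, 10 planned and 3 added after seeing the data. Each was also recomputed without each library of the compared groups in turn. Libraries outside the compared groups were not left out singly. No median changed sign. All 380 refits of the 20 called values kept their sign, 308 of them past the threshold. Those 20 values were picked by the test on the same libraries, so a kept sign says little about their stability. Among the 2352 refits of the 124 values not called, 126 changed sign. The number of mitotic genes lower with TNF-α was 0 in fits to only the groups compared, without the trend and without medium library 3 and knockdown library 2, and 4 with the GC content and length correction. The number lower with Bufotenidine was 4 in fits to only the groups compared, 2 by voom and 7 without those libraries, and its median was -0.066 with the correction. The number higher in the knockdown against TNF-α was 7 at a mean of at least 1 FPKM, 1 in fits to only the groups compared, 1 without the trend, 5 by voom and 14 with the correction, which also called 1 lower. The causes were not tested, and fits to only the groups compared also had fewer samples. Shares of all genes called are given for the main fit alone, so the counts under other settings have no background beside them. Rescaling by the median of ratios is no test of scaling here, since the factor was the same in every library.

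Leaving out each library of the compared groups in turn gave 0 to 1 gene lower with TNF-α (median -0.15 to -0.043) and 0 lower with Bufotenidine (median -0.24 to -0.16). It gave 0 to 4 higher in the knockdown against TNF-α (median 0.099 to 0.16) and 9 to 19 against Bufotenidine (median 0.28 to 0.39). The replicate numbers of the titles were taken as labels only: of 18 pairs of same-numbered libraries, 5 had deviations correlated above 0.1 (r from -0.37 to 0.15). With the replicate block, the genes lower with TNF-α numbered 0, those higher in the knockdown 2 against TNF-α and 13 against Bufotenidine. With the block and the GC content and length correction together, 3 were lower with TNF-α, the Bufotenidine median was -0.066, and in the knockdown against TNF-α 15 were higher and 1 lower. Depth limits PRC1 most, at under 50 reads per library.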
